A study of Homo sapiens with 5 samples.

Results

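The collagen prolyl and lysyl hydroxylases were taken by gene symbol: the prolyl 4-hydroxylase genes P4HA1, P4HA2 and P4HB, the prolyl 3-hydroxylase genes P3H1, P3H2, P3H3 and P3H4, and the lysyl hydroxylase genes PLOD1, PLOD2 and PLOD3. All 10 genes were found among the 28278 symbols of the count table, and all 10 passed the filter on low counts. Messenger RNA of HEK293T, an established cell line derived from human embryonic kidney, was sequenced in 2 libraries of cells given ascorbic acid (vitamin C) and 3 control libraries. The labels list the control cells as WT and the treated cells by the treatment alone, in DMEM with serum, with the medium renewed every 6 h. Cells were seeded for 24 h and treated for 24 or 36 h, and the labels do not say which time applies here and give no dose. Separate cultures are not mentioned, so the p-values may reflect technical spread among the 5 libraries alone. In such bulk RNA, fewer cells expressing a gene and less of its RNA per cell cannot be told apart.

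Collagen hydroxylases work in the endoplasmic reticulum on procollagen chains before these fold. Apart from the beta subunit P4HB and the non-catalytic P3H4, the members encode Fe(II) and 2-oxoglutarate dependent dioxygenases. Ascorbate keeps the iron of these enzymes in the ferrous state, which is why lack of vitamin C gives the unstable collagen of scurvy. Prolyl 4-hydroxylation stabilises the triple helix, prolyl 3-hydroxylation marks a few sites per chain, and lysyl hydroxylation prepares residues for glycosylation and cross-linking. Whether the messenger RNA of these enzymes changed when cells were given their cofactor was asked by comparing the treated with the control libraries. The enzymes' activity was not measured in these libraries.

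The libraries held 41739602 to 48015766 gene counts with ascorbic acid and 35106664 to 57212071 in controls. Even values made up 71.3 to 75.9% of the counts between 1 and 10, and whether mates of a fragment were counted separately was not tested. Of the genes checked for the line's identity, VIM, NEFL, NEFM and INA were detected in every library, while the embryonic kidney genes PAX2 (22 to 34 counts) and LHX1 (2 to 24 counts) were near the floor. NEFM, a neurofilament gene, was itself higher, with 30.3 and 27.7 CPM (counts scaled to a common depth after TMM scaling of the library totals) with ascorbic acid, against 17.0, 17.1 and 17.6 CPM in controls (log2 fold change 0.75 ± 0.07, edgeR adjusted p = 3.18e-08). VIM was not called (0.12 ± 0.04, adjusted p = 0.0583), although its groups did not overlap. These 6 genes summed to 917 to 963 CPM with ascorbic acid and 842 to 876 CPM in controls. Nearly all of this was VIM, with 915 and 872 CPM with ascorbic acid, against 815, 806 and 841 CPM in controls. Of 8 fibroblast genes, 4 had at most 2 counts in every library, among them COL1A2 and FAP. Summed over these 8 genes, the level was 1.53 to 2.27 CPM with ascorbic acid and 1.0 to 1.31 CPM in controls. Most of this was PDGFRA, with 44 and 50 counts with ascorbic acid, against 40, 24 and 25 counts in controls. Neither PDGFRA (0.58 ± 0.30, edgeR adjusted p = 0.209) nor PDGFRB (1.13 ± 0.52, adjusted p = 0.150) was called. The 3 haematopoietic genes summed to 79.1 to 87.2 CPM with ascorbic acid and 71.8 to 76.6 CPM in controls, nearly all of it LCP1, while CD74 and PTPRC were near 0. LCP1 was called higher (0.17 ± 0.05, adjusted p = 0.0329), but not with DESeq2 (adjusted p = 0.0554) or without treated replicate 1, control replicate 2 or control replicate 3 (0.10 to 0.17, adjusted p = 0.0768 to 0.345). The sums were 0.454 to 0.655 CPM with ascorbic acid and 0.316 to 0.520 CPM in controls for 3 endothelial genes, and 18.9 to 24.3 CPM with ascorbic acid and 19.9 to 24.5 CPM in controls for 4 keratinocyte genes. Nearly all of the endothelial sum was KDR, while PECAM1 and CDH5 had 0 to 2 counts. The keratinocyte sum was nearly all KRT10, while KRT14 had 0 to 2 counts and KRT5 and KRT1 had 0 in every library. The part of these cell types in the rises of hydroxylase, chaperone and collagen genes was not tested.

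P4HA1 and PLOD2 are among the members known to be induced by the hypoxia-inducible factors (HIF). Promoter sequences are shown for both and for the 2 genes that rose with ascorbic acid, PLOD3 and P3H2. Each is the 250 bases before a RefSeq gene start (GRCh38.p14), 5′ to 3′ on the gene's strand, which is the minus strand for all 4 genes. P3H2 has 2 starts in that table. Capitals mark ACGTG or GCGTG, the core letters that HIF is known to bind, read on both strands (CACGT is ACGTG on the other strand, and CACGTG is counted once for each strand). The windows lie at chr7:101217582-101217831 for PLOD3, at chr3:190122279-190122528 and chr3:190120898-190121147 for the starts of P3H2, at chr10:73096867-73097116 for P4HA1 and at chr3:146161185-146161434 for PLOD2.
PLOD3: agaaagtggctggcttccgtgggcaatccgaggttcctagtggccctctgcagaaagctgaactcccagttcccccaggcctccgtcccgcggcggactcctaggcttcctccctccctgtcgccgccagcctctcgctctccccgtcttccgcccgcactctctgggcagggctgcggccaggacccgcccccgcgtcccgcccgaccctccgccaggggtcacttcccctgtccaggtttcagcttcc
P3H2, first start: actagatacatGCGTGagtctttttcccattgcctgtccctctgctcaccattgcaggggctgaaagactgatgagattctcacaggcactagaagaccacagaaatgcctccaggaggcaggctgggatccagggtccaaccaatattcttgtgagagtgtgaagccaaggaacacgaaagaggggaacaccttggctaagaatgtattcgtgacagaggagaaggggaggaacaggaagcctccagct
P3H2, second start: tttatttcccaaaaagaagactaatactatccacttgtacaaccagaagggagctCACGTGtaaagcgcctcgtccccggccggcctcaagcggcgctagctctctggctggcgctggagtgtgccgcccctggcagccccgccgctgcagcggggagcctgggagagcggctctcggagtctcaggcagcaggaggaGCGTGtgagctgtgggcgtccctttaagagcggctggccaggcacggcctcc
P4HA1: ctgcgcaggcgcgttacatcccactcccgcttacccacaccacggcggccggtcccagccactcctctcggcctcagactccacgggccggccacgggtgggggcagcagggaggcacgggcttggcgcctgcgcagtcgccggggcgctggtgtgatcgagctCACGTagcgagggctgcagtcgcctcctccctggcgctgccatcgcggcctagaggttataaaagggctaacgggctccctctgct
PLOD2: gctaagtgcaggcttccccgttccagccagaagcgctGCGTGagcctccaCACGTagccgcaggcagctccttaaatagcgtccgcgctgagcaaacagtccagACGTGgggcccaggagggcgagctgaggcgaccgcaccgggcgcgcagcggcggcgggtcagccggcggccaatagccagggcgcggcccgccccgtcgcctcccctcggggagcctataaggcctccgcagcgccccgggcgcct
The PLOD3 window held neither motif, the P4HA1 window held 1 ACGTG, and the PLOD2 window held 2 ACGTG and 1 GCGTG. For P3H2, the window of the first start held 1 GCGTG, and that of the second start held 2 ACGTG, from 1 CACGTG, and 1 GCGTG. Of the windows not printed, those of P4HA2 and P3H3 held neither motif. P4HB and P3H1 held 1 GCGTG each, and PLOD1 held 2. Among the 10 windows of the 9 hydroxylase genes in the table, 3 held ACGTG, 6 held GCGTG and 7 held at least one of them. Of all 35116 windows of the same length, 18.5% held ACGTG, 32.2% held GCGTG and 43.2% held at least one. A match is a run of letters and not a binding site. P3H4 and FKBP10 were not among the windows used here.

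Before any comparison, the genes were ordered by level per length, as CPM per kb of exon in GENCODE release 29. P4HB, which encodes protein disulfide isomerase and so serves many secreted proteins besides being the beta subunit of prolyl 4-hydroxylase, was far above the others, with 160.4 ± 8.87 CPM per kb with ascorbic acid (SD, n = 2) and 171 ± 1.12 CPM per kb in controls (SD, n = 3). PLOD2 (27.4 CPM per kb with ascorbic acid and 27.3 in controls) and P3H1 (23.9 and 21.97) came next. They were followed by PLOD1 (21.1 CPM per kb with ascorbic acid and 19.8 in controls), P4HA1 (17.3 and 19.0), P3H4 (15.3 and 15.8) and PLOD3 (17.5 and 13.9). P3H3 (9.09 and 7.995), P4HA2 (4.24 and 3.84) and P3H2 (0.825 and 0.450) were lowest. In controls, PLOD1 and P4HA1 were the only neighbours in this order whose libraries overlapped. With ascorbic acid, PLOD3 stood above P3H4 and overlapped P4HA1, whereas in controls all 3 PLOD3 libraries were below those of P3H4 and P4HA1. The control order was the same when the longest transcript was used as the length.

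**Figure D1:**
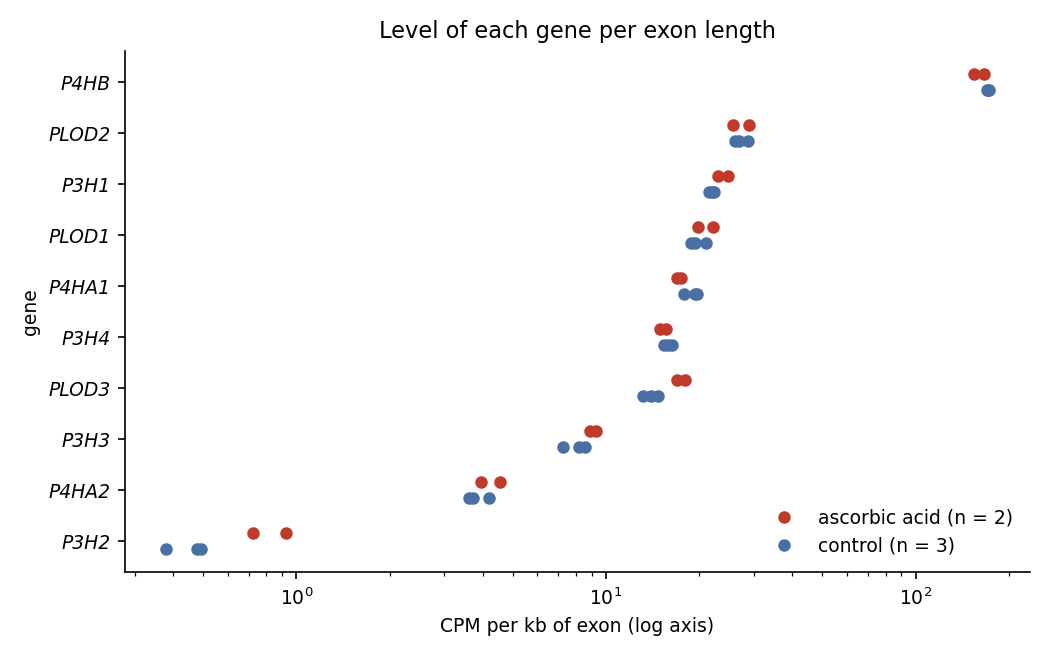
Level of each collagen hydroxylase gene in CPM per kb of exon (log axis), 1 point per library, with the ascorbic acid libraries (red, n = 2) above the control libraries (blue, n = 3) in each row. P4HB lies near 160.4 to 171 CPM per kb and P3H2 below 1, and PLOD3 and P3H2 are the rows in which the red points are farthest to the right of the blue ones.

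Ascorbic acid was accompanied by higher PLOD3 and P3H2 mRNA, while no other member passed the test and none fell. In edgeR's quasi-likelihood test, with Benjamini-Hochberg adjustment over 15271 genes and a threshold of 0.05, 2 of the 10 genes passed, both higher. Over all tested genes 14.3% passed, 8.53% as higher and 5.76% as lower, so 2 of 10 is not far from the background. The split over all genes was 1303 higher and 879 lower, against 1712 higher and 389 lower when libraries were scaled by their totals alone. The members' log2 fold changes ran from -0.14 for P4HA1 to 0.87 for P3H2 with a median of 0.11, against a median of 0.00 over all tested genes. At an unadjusted p under 0.05, 4 members were higher and 2 lower, and DESeq2 and limma-voom also called 2 higher and 0 lower. The libraries of the groups did not overlap for 6 of the 10 genes, 4 higher and 2 lower, against 43.1% of all tested genes (22.6% higher and 20.4% lower).

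**Figure D2:**
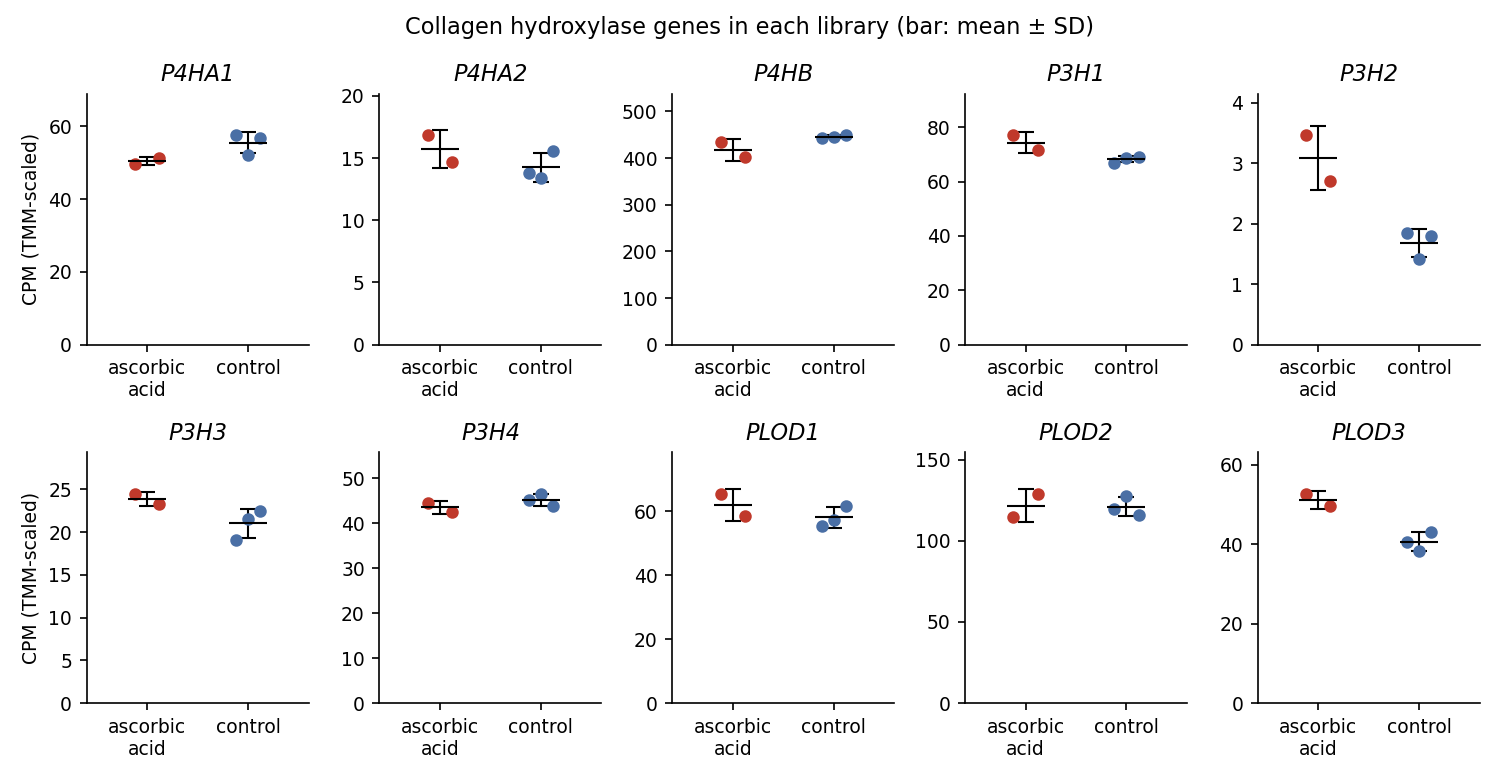
CPM of each collagen hydroxylase gene (vertical axis from 0, a scale for each gene) in the ascorbic acid libraries (red, left, n = 2) and control libraries (blue, right, n = 3); each point is a library and the black bar is the mean ± SD. The groups are apart for P3H2 and PLOD3, with higher values on the left, and differ by a smaller margin or overlap for the other genes.

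PLOD3 (chromosome 7, 101205977 to 101218420, minus strand, GRCh38) encodes lysyl hydroxylase 3, which besides hydroxylating lysine also adds galactose and glucose to hydroxylysine. It had 52.7 and 49.5 CPM in the ascorbic acid libraries, against 40.7, 38.3 and 43.0 CPM in the controls. Both treated libraries were above every control. The means were 51.1 ± 2.24 CPM (SD, n = 2) with ascorbic acid and 40.7 ± 2.33 CPM (SD, n = 3) in controls, a 1.26-fold rise. On the log2 scale the change was 0.33 ± 0.06 (SE), with a 95% interval of 0.20 to 0.46 and an edgeR adjusted p = 0.000479. PLOD3 ranked 292 of 15271 genes by p, and 98.0% of the 5404 genes with a mean of 20 to 100 CPM had a lower log2 fold change. It passed with each library left out (0.28 to 0.37, adjusted p = 5.12e-05 to 0.0123) and with GC and length trends removed (0.27, adjusted p = 0.000116), but not when tested against a fold of 1.2 (adjusted p = 0.650).

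The other lysyl hydroxylases did not pass. PLOD1 (chromosome 1, 11934205 to 11975538, plus strand), which hydroxylates lysines within the helix, had 65.4 and 58.5 CPM with ascorbic acid, against 55.4, 57.2 and 61.7 CPM in controls. The groups overlapped, and the log2 fold change was 0.10 ± 0.06 (95% interval -0.03 to 0.22, edgeR adjusted p = 0.311). PLOD2 (chromosome 3, 146069440 to 146163653, minus strand), which acts on the lysines of the telopeptides, had 114 and 129 CPM with ascorbic acid, against 119.6, 128 and 116 CPM in controls. The treated libraries lay on either side of the controls, and the log2 fold change was 0.01 ± 0.05 (95% interval -0.10 to 0.12, adjusted p = 0.957). That interval leaves room for a change of about the size seen for PLOD1, but does not reach that of PLOD3. As a share of the summed CPM per kb of the 3 PLOD genes, PLOD3 made up 27.3 and 25.8% with ascorbic acid, against 23.3, 21.4 and 23.8% in controls. The PLOD sum was 66.0 and 65.9 CPM per kb with ascorbic acid, against 59.7, 61.3 and 61.8 CPM per kb in controls. PLOD2 was the most abundant of the family in every library, with 39.0 and 44.1% of the sum with ascorbic acid, against 45.1, 46.9 and 42.2% in controls.

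P3H2 (chromosome 3, 189956728 to 190122437, minus strand), a prolyl 3-hydroxylase known to act on basement membrane collagen IV, had the largest fold change of the 10 genes and the lowest level. It had 3.46 and 2.71 CPM with ascorbic acid (168 and 116 counts), against 1.85, 1.42 and 1.79 CPM in controls (104, 54 and 62 counts). Both treated libraries were above every control. The means were 3.09 ± 0.531 CPM (SD, n = 2) with ascorbic acid and 1.69 ± 0.232 CPM (SD, n = 3) in controls, a 1.82-fold rise with a log2 fold change of 0.87 ± 0.19 (95% interval 0.47 to 1.26, edgeR adjusted p = 0.00272). Genes at this level tended upward in these libraries: the 2284 genes with a mean of 1 to 5 CPM had a median log2 fold change of 0.15, and 14.5% of them were called higher and 0.61% lower. Of those genes, 95.3% had a lower log2 fold change than P3H2. With the trend over expression removed by cyclic loess, P3H2 still passed at 0.70 (adjusted p = 0.0255). All 5 counts were even, and halving the counts left the call (0.87, adjusted p = 0.00193). The call ended without treated replicate 1 (0.68, adjusted p = 0.0873), a fit in which PLOD3 and P4HB were the 2 members called.

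P3H1, P3H3 and P3H4 did not pass. P3H1 (chromosome 1, 42746335 to 42767084, minus strand), which forms a complex with CRTAP and the cyclophilin PPIB, had 77.0 and 71.6 CPM with ascorbic acid, against 67.0, 68.5 and 69.2 CPM in controls. The treated libraries were above the controls by a small margin (0.12 ± 0.05, 95% interval 0.02 to 0.23, edgeR adjusted p = 0.118). P3H3 (chromosome 12, 6828410 to 6839851, plus strand) had 24.5 and 23.3 CPM with ascorbic acid, against 19.1, 21.5 and 22.5 CPM in controls. Again the groups did not overlap (0.19 ± 0.08, 95% interval 0.03 to 0.35, adjusted p = 0.0998). Both passed when libraries were scaled by their totals alone (P3H1 at 0.17, adjusted p = 0.0347, and P3H3 at 0.23, adjusted p = 0.0465), P3H1 also with GC and length trends removed (0.14, adjusted p = 0.0190), and P3H3 without control replicate 3 (0.24, adjusted p = 0.0415). P3H4 (chromosome 17, 41801947 to 41812604, minus strand), a non-catalytic relative known to form a complex with P3H3 and PLOD1 in mice, had 44.5 and 42.5 CPM with ascorbic acid, against 45.1, 46.5 and 43.8 CPM in controls. Its groups overlapped (-0.05 ± 0.06, 95% interval -0.17 to 0.07, adjusted p = 0.622).

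The prolyl 4-hydroxylase subunits did not pass in either direction. The enzyme is a tetramer of catalytic alpha subunits, encoded by P4HA1 or P4HA2, and the beta subunit P4HB. P4HA1 (chromosome 10, 73007217 to 73096974, minus strand) had 49.8 and 51.3 CPM with ascorbic acid, against 57.6, 52.2 and 56.8 CPM in controls. Both treated libraries were below every control, with a log2 fold change of -0.14 ± 0.06 (95% interval -0.26 to -0.02, edgeR adjusted p = 0.117). P4HA2 (chromosome 5, 132191838 to 132295315, minus strand) had 16.8 and 14.7 CPM with ascorbic acid, against 13.8, 13.4 and 15.6 CPM in controls. The groups overlapped (0.15 ± 0.09, 95% interval -0.04 to 0.33, adjusted p = 0.289). P4HB (chromosome 17, 81843159 to 81860694, minus strand) had 434 and 401 CPM with ascorbic acid, against 443, 445 and 449 CPM in controls. Both treated libraries were below the controls (-0.09 ± 0.04, 95% interval -0.18 to -0.00163, adjusted p = 0.170). P4HB is at a level where most genes were slightly lower with ascorbic acid, since the 2104 genes with a mean of 100 to 500 CPM had a median log2 fold change of -0.06. P4HB passed without treated replicate 1 (-0.15, adjusted p = 0.0458) and with GC and length trends removed (-0.13, adjusted p = 0.0103). P4HA2 shares 14.8% of its exon length with P4HA2-AS1 and P4HB 20.3% with AC145207.3 on the opposite strand, and no source used here gives the strand setting of the counts, so both values are uncertain to that extent.

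Within the alpha subunits, P4HA1 was the more abundant in every library. P4HA2 was present at 0.266 and 0.225 times the CPM per kb of P4HA1 with ascorbic acid, against 0.188, 0.202 and 0.217 times in controls. The groups did not overlap in this ratio, although neither gene passed. They also did not overlap for P4HA1 alone, nor for 43.1% of all tested genes, and the ratio was not tested. The ratio of P4HB to the sum of both alpha subunits was 7.73 and 7.18 with ascorbic acid, against 7.27, 7.97 and 7.30 in controls, so these overlapped. P4HA3, another alpha subunit gene that is not among the 10, had 30 and 20 counts with ascorbic acid, against 16, 16 and 20 counts in controls (0.40 ± 0.41, edgeR adjusted p = 0.570). P4HTM, which encodes a membrane-bound relative, had 0 to 2 counts in every library and was not tested.

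**Figure D3:**
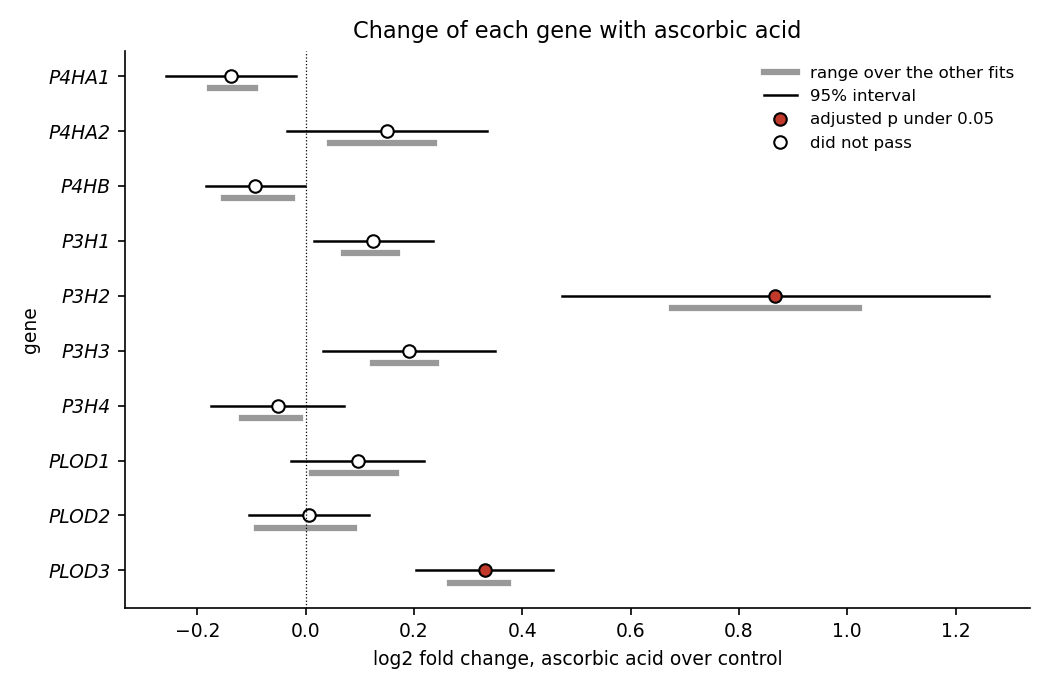
Log2 fold change of each collagen hydroxylase gene, ascorbic acid over control (horizontal axis), from edgeR, with its 95% interval (black line); the grey bar below each point is the range over the other fits, and filled points passed an adjusted p of 0.05. P3H2 at 0.87 and PLOD3 at 0.33 are the filled points, and the intervals of P4HA2, P3H4, PLOD1 and PLOD2 include 0.

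**Figure D4:**
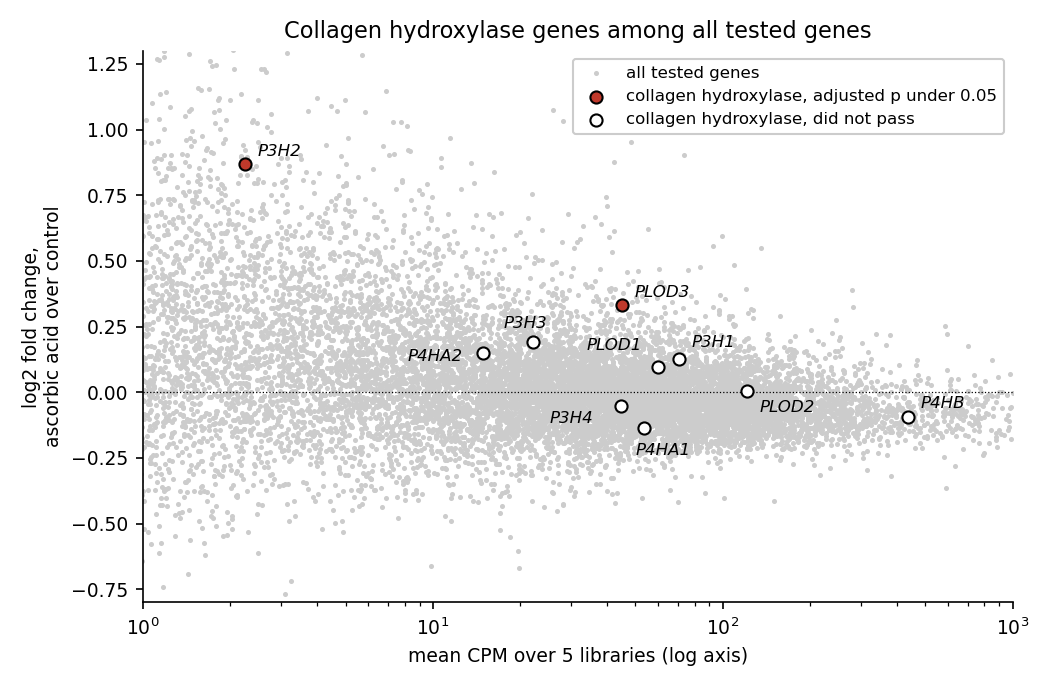
Log2 fold change, ascorbic acid over control (vertical axis), against mean CPM over the 5 libraries (log axis) for tested genes within the drawn range (grey) and the 10 collagen hydroxylase genes (circles, filled where the adjusted p was under 0.05). P3H2 lies in the region of low-level genes that spread upward, and PLOD3 lies at the upper edge of genes of its level.

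The genes that work with these enzymes were described from 8 lists. For comparison with each count, 8.53% of all tested genes were called higher and 5.76% lower. Of 17 tested genes of collagen folding and its helpers, 6 rose, 0 fell and 11 did not pass, with a median log2 fold change of 0.16. With each library left out, 3 to 5 rose, the fewest without treated replicate 1, and 0 fell. At an unadjusted p under 0.05, 8 were higher and 2 lower, and DESeq2 called 6 higher and 0 lower. SERPINH1, the collagen-specific chaperone HSP47, had 106 and 97.2 CPM with ascorbic acid, against 86.7, 86.7 and 87.5 CPM in controls (0.23 ± 0.05, edgeR adjusted p = 0.00301). CRTAP, the partner of P3H1, had 283 and 269 CPM with ascorbic acid, against 260.5, 238 and 238 CPM in controls (0.17 ± 0.05, adjusted p = 0.0164). PPIB, the other partner of P3H1, did not pass (-0.05 ± 0.06, adjusted p = 0.559), so of this complex CRTAP was called and neither P3H1 nor PPIB was. PPIB shares 48.0% of its exon length with SNX22 on the opposite strand and is uncertain. The proline isomerase gene FKBP9 rose by 0.38 ± 0.07 (adjusted p = 0.000617) and SPARC, a collagen-binding glycoprotein, by 0.71 ± 0.06 (adjusted p = 4.09e-09). The SERPINH1 call ended without treated replicate 1 (0.16, adjusted p = 0.0705), and the CRTAP call without treated replicate 1 or control replicate 2 or 3 (0.13 to 0.15, adjusted p = 0.0607 to 0.121).

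COLGALT2, which adds galactose to hydroxylysine, had 13.5 and 14.5 CPM with ascorbic acid, against 11.0, 11.5 and 11.4 CPM in controls (0.31 ± 0.09, edgeR adjusted p = 0.0196). The more abundant transferase gene COLGALT1 had 191 and 183 CPM with ascorbic acid, against 183, 181 and 188 CPM in controls, and did not pass (0.02 ± 0.05, adjusted p = 0.771). The COLGALT2 call ended without treated replicate 2 or control replicate 1 (0.25 to 0.30, adjusted p = 0.0719 to 0.161) and with cyclic loess (0.26, adjusted p = 0.0724). FKBP10, an isomerase known to assist PLOD2, starts 76 bases from P3H4 and is transcribed away from it. It had 170.4 and 174 CPM with ascorbic acid, against 160.5, 159.9 and 159.6 CPM in controls, and did not pass (0.11 ± 0.05, adjusted p = 0.119). It passed with library totals (0.15, adjusted p = 0.0252), the 5 CPM filter (0.13, adjusted p = 0.0462) and cyclic loess (0.16, adjusted p = 0.0235). Per kb, FKBP10 stood at 4.10 and 4.37 times P3H4 with ascorbic acid, against 3.81, 3.68 and 3.90 times in controls, without overlap. The groups were also apart for FKBP10 alone, and this ratio was not tested. TMEM38B (-0.14 ± 0.05), an endoplasmic reticulum cation channel gene, SLC39A13 (-0.07 ± 0.09), a zinc transporter gene, and CREB3L1 (0.30 ± 0.41), a transcription factor gene, did not pass (adjusted p = 0.0811 to 0.680). KDELR3, a receptor gene for retrieval to the endoplasmic reticulum that was chosen after its values were seen, rose by 0.61 ± 0.16 (adjusted p = 0.00962), and this call ended without treated replicate 1 or control replicate 1 (0.51 to 0.52, adjusted p = 0.0719 to 0.116) and with cyclic loess (0.47, adjusted p = 0.0718).

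Among genes of the protein disulfide isomerase family other than P4HB, listed together with the oxidase genes ERO1A and ERO1B, the calls were in the other direction. Not all members of this family are active isomerases. Of the 14 tested, 4 fell, 0 rose and 10 did not pass, with a median log2 fold change of -0.07, and both DESeq2 and an unadjusted p under 0.05 gave 4 lower and 0 higher. With each library left out, 2 to 3 fell, and 2 without treated replicate 2 or control replicate 1 or 2. Genes at these levels tended downward: 15.3% of tested genes with a mean of 100 to 500 CPM were called lower, with a median log2 fold change of -0.06, and 7.14% of those with 20 to 100 CPM, with a median of -0.02. With cyclic loess, which removes such a trend, 2 of the 14 fell. TMX2 had 88.6 and 84.1 CPM with ascorbic acid, against 110.6, 102 and 103 CPM in controls (-0.29 ± 0.05, edgeR adjusted p = 0.000317). ERP29 had 80.5 and 78.1 CPM with ascorbic acid, against 96.8, 95.7 and 93.6 CPM in controls (-0.27 ± 0.05, adjusted p = 0.000574). PDIA6 fell by 0.14 on the log2 scale (adjusted p = 0.0360). This call ended without treated replicate 2 or control replicate 1 or 2 (-0.14 to -0.10, adjusted p = 0.123 to 0.208) and with cyclic loess, library totals, the 5 CPM filter and upper-quartile factors (-0.13 to -0.09, adjusted p = 0.0668 to 0.235). ERP44, chosen after its values were seen, fell by 0.15 on the log2 scale (adjusted p = 0.0493), a call lost with each library left out (-0.16 to -0.14, adjusted p = 0.0875 to 0.142). Over all tested genes 5.76% were called lower. Of 16 procollagen export genes, 0 rose (also 0 with DESeq2 and at an unadjusted p under 0.05) and 1 fell. The number that fell was 3 with GC and length trends removed, and 0 with cyclic loess, each of the other scalings but DESeq2 size factors, and either of the other filters. At an unadjusted p under 0.05, 2 were lower. The gene that fell was SEC31A, a coat protein gene (-0.13 ± 0.04, adjusted p = 0.0493), and its call was lost with each library left out (-0.15 to -0.12, adjusted p = 0.0534 to 0.152), while it held with GC and length trends removed (-0.12, adjusted p = 0.0205).

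Enzymes that act on collagen after secretion included 4 genes that rose, 0 that fell and 8 that did not pass, of 12 tested, with a median log2 fold change of 0.17. DESeq2 called 3 higher and 0 lower, and at an unadjusted p under 0.05 the counts were 5 higher and 0 lower. With cyclic loess 3 rose, and 2 of the 6 genes that pass the 5 CPM filter rose. All 4 were lysyl oxidase-like genes, whose products convert lysine and the hydroxylysine made by PLOD enzymes to the aldehydes that form cross-links. All 4 were expressed at low levels, where calls were mostly upward: 14.5% of tested genes with a mean of 1 to 5 CPM were called higher and 0.61% lower, and 13.6% higher and 3.27% lower of those with 5 to 20 CPM. LOXL1 had 4.35 and 4.35 CPM with ascorbic acid, against 2.06, 2.68 and 2.51 CPM in controls (0.86 ± 0.16, edgeR adjusted p = 0.000468). LOXL3 rose by 0.58 ± 0.11 (adjusted p = 0.000862) and LOXL2 by 0.50 ± 0.11 (adjusted p = 0.00189). LOXL4 and LOX were chosen after their values were seen. LOXL4 rose by 0.90 ± 0.27 (adjusted p = 0.0254), and LOX had 20.4 ± 0.499 CPM with ascorbic acid (SD, n = 2) and 18.9 ± 0.697 CPM in controls (SD, n = 3) and did not pass (0.10 ± 0.08, adjusted p = 0.401). The LOXL2 call ended without treated replicate 1 (0.38, adjusted p = 0.0793), and the LOXL4 call without treated replicate 2 or control replicate 3 (0.56 to 0.76, adjusted p = 0.0602 to 0.353), with DESeq2 (0.91, adjusted p = 0.0619) and with cyclic loess (0.70, adjusted p = 0.114).

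Among the collagen chains on which the hydroxylases act, 5 of 8 tested fibrillar collagen genes rose and 0 fell, with a median log2 fold change of 0.64 (6 higher and 0 lower at an unadjusted p under 0.05, and 5 higher and 0 lower with DESeq2). COL3A1, a fibril-forming chain, had 8.88 and 8.72 CPM with ascorbic acid, against 3.62, 3.53 and 3.70 CPM in controls (1.28 ± 0.12, edgeR adjusted p = 1.35e-08). Like the lysyl oxidase genes, COL3A1, COL5A2 and COL1A1 lie at levels where calls were mostly upward. COL5A2 rose by 1.15 ± 0.11 (adjusted p = 3.30e-08) and COL1A1 by 0.67 ± 0.11 (adjusted p = 7.30e-05). The most abundant of the 8 changed less, with means of 27.9 CPM for COL5A1 and 26.0 CPM for COL27A1 over all libraries. COL5A1 rose by 0.27 ± 0.07 (edgeR adjusted p = 0.00882), and COL27A1 did not pass (0.07 ± 0.08, adjusted p = 0.596). Both were chosen after their values were seen. Of 21 other collagen genes 4 rose and 1 fell, with a median of 0.23, and with each library left out 2 to 4 rose, the fewest without treated replicate 1, and 0 to 1 fell. COL6A1 (0.64 ± 0.07) and COL6A2 (0.68 ± 0.08), chains of collagen VI, rose with adjusted p = 6.36e-08 and 1.06e-06. The gene that fell was COL4A2, a collagen IV chain, chosen after its values were seen. The other collagen IV genes did not pass, with log2 fold changes of -0.08 for COL4A1, -0.08 for COL4A3, -0.39 for COL4A4, 0.00 for COL4A5 and 0.08 for COL4A6 (adjusted p = 0.233 to 0.978). COL4A2 had 82.6 and 76.5 CPM with ascorbic acid, against 88.8, 88.6 and 91.6 CPM in controls (-0.17 ± 0.05, adjusted p = 0.0258). The COL4A2 call ended without treated replicate 2 or any 1 control replicate (-0.18 to -0.13, adjusted p = 0.0625 to 0.177). It also ended with cyclic loess, library totals and the 5 CPM filter (-0.15 to -0.13, adjusted p = 0.0550 to 0.0940). COL19A1 (0.82 ± 0.22, edgeR adjusted p = 0.0113) was not called without treated replicate 1 (0.74, adjusted p = 0.101) or with cyclic loess (0.63, adjusted p = 0.0719).

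Set beside these, the hydroxylases' median of 0.11 was smaller than that of the fibrillar collagens, and the difference between the lists was not tested. The lists also differ in level. Of the hydroxylases, 6 had a mean of 20 to 100 CPM and 2 of 100 to 500 CPM. All tested genes at these levels had median log2 fold changes of -0.02 and -0.06. COL3A1, COL5A2 and COL1A1 had 5 to 20 CPM, where the median was 0.05, while COL5A1 and COL27A1 had 20 to 100 CPM. Among related dioxygenases, 0 of the 3 tested HIF hydroxylase genes passed in edgeR (also 0 with DESeq2, and 1 lower at an unadjusted p under 0.05), with -0.10 ± 0.05 for EGLN1 and -0.09 ± 0.05 for HIF1AN (adjusted p = 0.149 and 0.248), although HIF1AN passed with GC and length trends removed (-0.11, adjusted p = 0.0401). The share called higher over all tested genes was 8.53%. Of 10 tested other 2-oxoglutarate enzymes 2 rose and 0 fell (1 higher and 0 lower with DESeq2, and 3 higher and 2 lower at an unadjusted p under 0.05). The counts were 3 higher and 2 lower with GC and length trends removed, and 1 higher and 1 lower without treated replicate 1. The 2 genes that rose in the main edgeR fit were OGFOD3 (0.32 ± 0.08, adjusted p = 0.00838) and PHYH, the peroxisomal phytanoyl-CoA hydroxylase gene (0.26 ± 0.09, adjusted p = 0.0409). Both calls ended without treated replicate 1 (OGFOD3 at 0.20, adjusted p = 0.212, and PHYH at 0.19, adjusted p = 0.303), and that of PHYH also without control replicate 3 (0.20, adjusted p = 0.144), with DESeq2 (0.26, adjusted p = 0.0835) and with cyclic loess (0.24, adjusted p = 0.103).

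**Figure D5:**
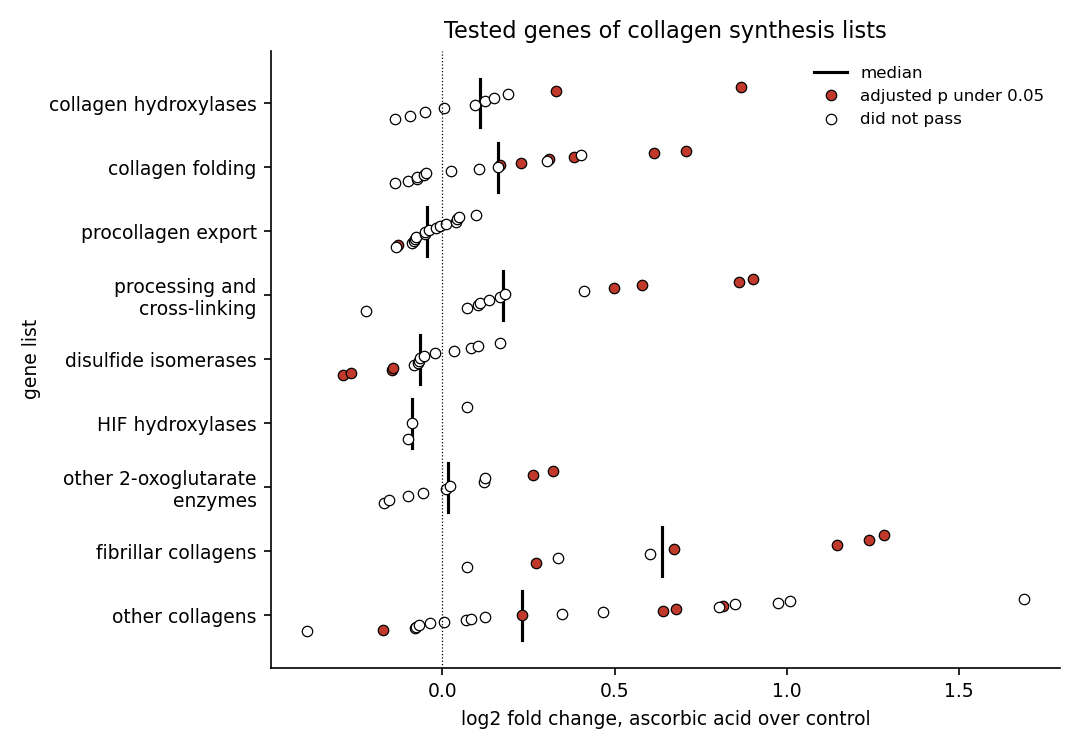
Log2 fold change, ascorbic acid over control (horizontal axis), of every tested gene in each list of collagen synthesis (rows), 1 point per gene, filled where the adjusted p was under 0.05; black bars are list medians. The median is 0.11 for the collagen hydroxylases, 0.64 for the fibrillar collagens and -0.07 for the disulfide isomerase row, which holds family members and oxidase genes.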

How the data were processed

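Whole-number counts of reads per gene were deposited by the authors as one table of 5 libraries. Trimmomatic 0.39, STAR, featureCounts and DESeq2 are named with the hg38 (GRCh38) build, per the submitters' processing notes, while annotation, strand setting and mate handling were not given in those sources. Columns were assigned by name, taking "vc" for vitamin C. Genes were filtered with filterByExpr, scaled with TMM, and compared with edgeR 4.0.16 in R 4.3.3 (robust glmQLFit and glmQLFTest, two-sided, no covariates). Benjamini-Hochberg adjustment ran over 15271 genes. Standard errors are log2 fold changes divided by the root of F, and 95% intervals from these and the test's degrees of freedom. The biological coefficient of variation was 4.6%. The test was tried on simulated counts before use. Positions and lengths came from GENCODE release 29 (25558 of 28278 symbols matched), and promoter windows from RefSeq (GRCh38.p14). Members and lists were chosen with earlier results of these data known. Genes named were the 10 members, a panel of 11 partners, and in each list the 3 called genes with the lowest p (in lists without calls, the 2 most abundant). LOX, LOXL4, KDELR3, COL4A2, the other collagen IV genes, COL5A1, COL27A1, ERP44, NEFM, VIM, PDGFRA, PDGFRB and LCP1 were added after their values were seen. COL5A1 and COL27A1 were not followed singly through the alternatives. Alternatives were DESeq2 1.42.0, limma-voom and cyclic loess with limma 3.58.1, other scalings and filters, a replicate block, no robust prior, glmTreat at a fold of 1.2, halved counts and each library left out. Removal of GC and length trends (mgcv 1.9.3, 95.2% of tested genes) was chosen after seeing the data. Fits without 1 treated library assume that the remaining one varies as the controls do.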

Additional observations from a re-analysis of the deposited data

How the results depend on the processing

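Of the 10 hydroxylase genes 2 were called, and 2 were also called under DESeq2, limma-voom, DESeq2 size factors, upper-quartile factors, no filter, no robust prior, cyclic loess, halved counts and the replicate block. The count was 4 with library totals, 4 with GC and length trends removed, 1 with the 5 CPM filter, which removes P3H2, and 1 against a fold of 1.2, and it was 2 to 3 with each library left out. Over all genes 2182 were called, against 286 for a fold of 1.2, 1431 with cyclic loess and 1180 to 2047 with each library left out (1180 without control replicate 1). The median log2 fold change of all genes moved by less than 0.1 in every alternative. PLOD2 changed sign with the replicate block (log2 fold change -0.0257), COLGALT1 with GC and length trends removed (-0.0145). With each library left out, PLOD2 ran from -0.0896 to 0.0896, COLGALT1 from -0.00416 to 0.0450 and PPIB from -0.143 to 0.0191. The sign also changed for CREB3L1 with cyclic loess (-0.000744). None of these was called in any of those fits. The replicate numbers are not shown to pair the libraries. Same-numbered libraries' deviations from their group means correlated at 0.0247 and 0.0109 over genes. The deviations of the 2 treated libraries are equal and opposite by construction, so these values cannot decide about pairing. The block gave 1880 calls, 2 of them among the hydroxylases. Control replicate 3 has no treated library of its number, so it adds nothing to the treatment difference in that fit. The block ended the calls of LOXL4 (0.73), PHYH (0.20), SEC31A (-0.12), ERP44 (-0.14), COL4A2 (-0.16) and LCP1 (0.15). Among the other named genes, COL5A1 aside, it ended no call. SEC31A and ERP44 were also not called with library totals, upper-quartile factors, no filter, the 5 CPM filter, no robust prior, cyclic loess or a fold of 1.2. Against a fold of 1.2, P3H2, LOXL1, SPARC, NEFM, COL3A1, COL5A2, COL1A1, COL6A1 and COL6A2 were the named genes still called, with COL5A1 not examined. The cause of these changes was not tested. At the depth of P3H2 (54 to 168 counts), left-out fits moved its change between 0.68 and 1.02.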
